A study of Mus musculus with 11 samples.

Results

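Regulators of G protein signalling (RGS proteins) were followed in 11 arrays of mouse CD4 T cells through 8 genes, Rgs1, Rgs2, Rgs3, Rgs10, Rgs14, Rgs16, Rgs18 and Rgs19, out of 18193 genes measured. The 8 genes were chosen from the RGS family with earlier results of these arrays known. For each gene the main value is that of the probe set (the group of short probes that reads a transcript) with the highest mean over the 11 arrays, so the levels and differences of these genes are a description and carry no test of their own. The genes had 18 probe sets among the 34945 that carry a single gene symbol. 11 more RGS genes were measured, with 24 probe sets.

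The arrays compared 3 groups of CD4 T cells taken from mice of 6 to 8 weeks (spleen and lymph node), as part of a study of whether Foxp3, the transcription factor of regulatory T cells, acts on enhancers that its precursor cells already carry. The 3 TN arrays came from naive CD4 T cells without Foxp3, and the 5 Treg arrays from CD4 T cells labelled as expressing it. For the 3 GFPKO arrays, CD4 T cells with GFP were taken from Foxp3GFPKO/WT mice, which have a knockout allele that expresses GFP and a wild-type copy. CD4 T cells were enriched in all groups by positive selection and then sorted on GFP. The allele that marks TN and Treg cells is not given in the labels, which also name no separate mice for the arrays of a group, so every error below measures the spread between arrays, which may be technical.

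When a receptor coupled to a heterotrimeric G protein is engaged, the G alpha subunit binds GTP, separates from G beta and gamma, and signals until it hydrolyses the GTP. RGS proteins share a domain that speeds this hydrolysis and so shortens the signal. In lymphocytes the receptors concerned include those for chemokines and for sphingosine 1-phosphate, which steer cells through lymphoid organs, and RGS proteins are known to limit migration to such cues.

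Values are on the log2 scale of the authors' RMA normalisation, where a difference of 1 is a doubling. Array medians lay between 4.07 and 4.16. The highest TN reading of the Foxp3 probe set, 3.99, was taken as the background level. Foxp3 itself read 3.29 to 3.64 on the Treg arrays and 6.75 to 7.19 on the GFPKO arrays, which goes against the label of the former. The name Treg is thus used for arrays with that label, on which every direction given for the group depends. Ctla4 and Ikzf2, taken up below with Rgs1, averaged 5.81 and 6.60 in TN, 10.16 and 10.68 in Treg, and 9.66 and 10.41 in GFPKO. Both were picked for their likeness to Rgs1 over these same arrays, so their levels are no check of the labels. Whether the labels are right was not tested. Xist was at or below background on average in TN and Treg, whereas Eif2s3y, Kdm5d and Uty of the Y chromosome were so in GFPKO, so sex and genotype cannot be told apart in comparisons with GFPKO. The 5 T cell markers measured were above background in every group and 0 were called in each comparison in limma (at an unadjusted p under 0.05, 1 was higher in GFPKO than in TN, 1 was lower in Treg than in GFPKO, and 0 differed between Treg and TN). Correlations between arrays of a group were at least 0.994 in TN, 0.990 in Treg and 0.979 in GFPKO. The gap between the 3′ and 5′ actin probe sets, which widens as RNA degrades, was 0.77 and 0.83 in GFPKO replicates 1 and 2 and between 0.38 and 0.61 on the other arrays.

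Of the 8 genes, 4 were called higher and 1 lower in Treg than in TN, by limma fitted over all genes with a Benjamini-Hochberg adjusted p under 0.05. Over all genes 6.54% were called higher and 3.42% lower in that comparison. In GFPKO against TN 2 were called higher and 1 lower, beside 2.64% and 3.02% of all genes. In Treg against GFPKO 3 were called higher and 0 lower (0 also at an unadjusted p under 0.05), beside 6.88% and 2.55% of all genes. The median difference of the 8 genes was 0.31, -0.02 and 0.27 in the 3 comparisons as listed, and that of all genes 0.03, -0.04 and 0.08. These counts follow from how the genes were chosen and are read no further. The 3 comparisons share arrays, so each gene is given with its values in all groups.

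**Figure D1:**
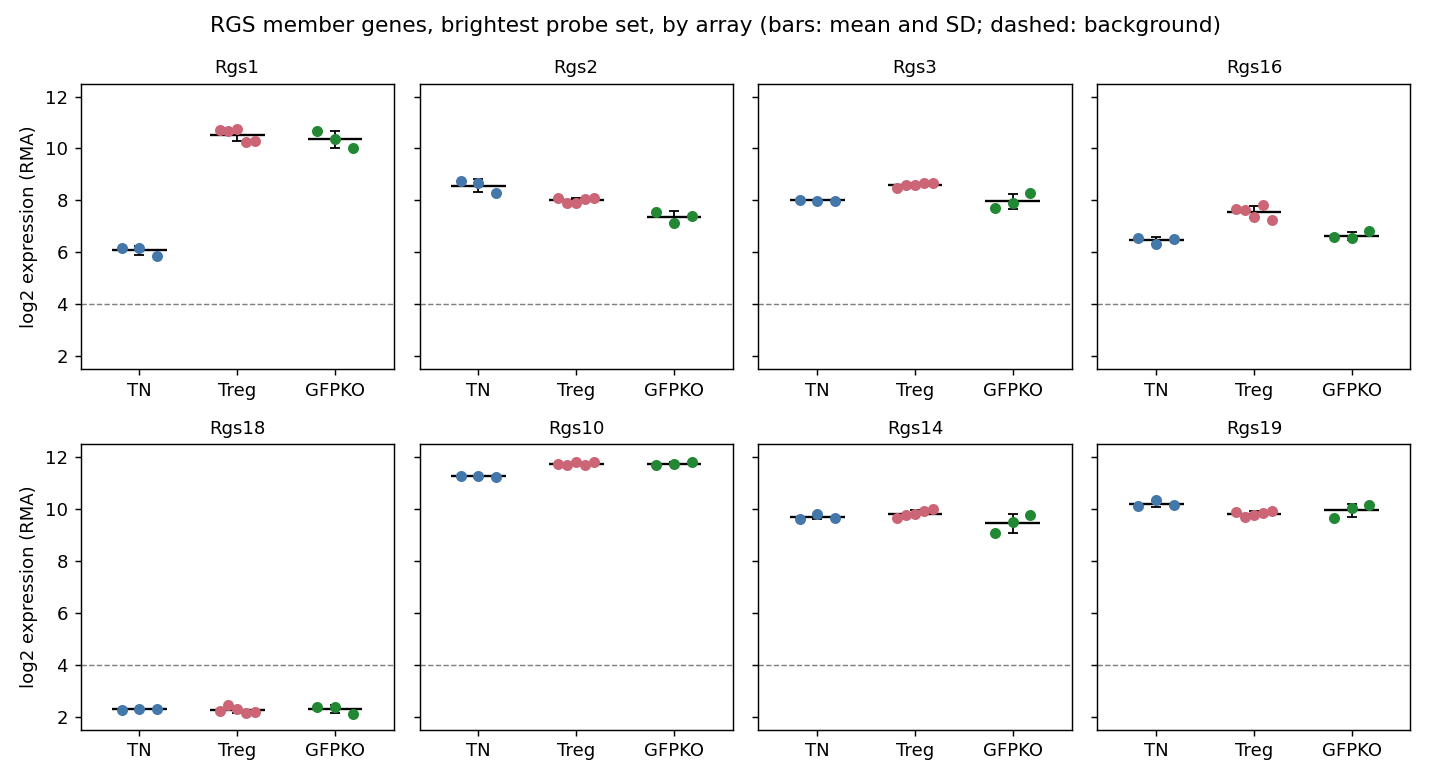
Each panel plots the log2 expression of 1 gene's brightest probe set (vertical axis) on the TN, Treg and GFPKO arrays; points are arrays, bars the group mean and SD, and the dashed line the background of 3.99. Rgs1 stands near 6 in TN and above 10 on every Treg and GFPKO array, Rgs2 falls stepwise from TN to Treg to GFPKO, Rgs3 and Rgs16 are highest in Treg, and Rgs18 lies below the dashed line on all 11 arrays.

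Rgs1, a small member of the R4 subfamily that restrains chemokine-driven migration of lymphocytes, showed the widest separation of the 8 genes. Its single probe set read 6.16, 6.18 and 5.87 on the TN arrays, 10.71, 10.67, 10.73, 10.26 and 10.29 on the Treg arrays, and 10.69, 10.35 and 10.03 on the GFPKO arrays. Every Treg and GFPKO array lay above every TN array, and the Treg and GFPKO ranges overlapped. The level was 22.0-fold higher in Treg than in TN (log2 difference 4.46 ± 0.17 SE) and 19.5-fold higher in GFPKO than in TN (4.28 ± 0.19). Both were called under all 19 alternatives of the analysis. Between Treg and GFPKO the log2 difference was 0.18 ± 0.17, with a 95% interval from -0.18 to 0.53. The TN level was itself above background.

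The genes whose pattern over the 11 arrays lay nearest to that of Rgs1 were Ctla4, Ikzf2 and Coro2a. Likeness was the root mean square difference after centring each gene on its own mean, taken over 7957 genes with a group mean of at least 6. The values were 0.23 for Ctla4, an inhibitory receptor, 0.26 for Ikzf2, which encodes the zinc finger factor Helios, and 0.33 for Coro2a, a coronin. Mean levels of Ctla4 were 5.81 in TN, 10.16 in Treg and 9.66 in GFPKO.

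Rgs1 is an old marker of activated B cells, and the B cell list is therefore given beside it. Of its 6 measured genes Cd79a, Ms4a1 and Ebf1 were at or below background in all 3 groups. The summed signal of the list (on the linear scale) was 131 to 146 in TN, 288 to 360 in Treg and 112 to 156 in GFPKO. Cd79b, a chain of the B cell receptor, was called higher in both groups than in TN, at 4.36 in TN, 7.63 in Treg and 6.01 in GFPKO. The higher sum in Treg than in TN rested on Cd79b. Pax5, at 4.24 in TN, 4.40 in Treg and 4.24 in GFPKO, was not called in any comparison. Cd22, a B cell lectin, was called lower in GFPKO than in TN (4.87 against 5.89), and Ms4a1, below background in each group, was called lower in both groups than in TN. The part of B cells in the Rgs1 difference was not tested.

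Rgs16, another R4 protein, which is induced in activated lymphocytes, was highest in Treg by all 3 of its probe sets. The brightest, 1455265_a_at, read 6.54, 6.31 and 6.52 in TN, 7.68, 7.62, 7.37, 7.84 and 7.24 in Treg, and 6.57, 6.53 and 6.82 in GFPKO. The Treg arrays stood above all others, while TN and GFPKO overlapped. The difference was 1.09 ± 0.15 between Treg and TN, 0.91 ± 0.15 between Treg and GFPKO and 0.18 ± 0.16 between GFPKO and TN (95% interval -0.16 to 0.53).

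The second Rgs16 probe set, 1426037_a_at, gave another picture of GFPKO. It read 3.73, 4.12 and 4.37 in TN, 6.87, 6.60, 6.84, 6.64 and 6.91 in Treg, and 5.43, 5.36 and 5.36 in GFPKO, so that GFPKO lay between the other groups with no overlap. In a fit over all probe sets Treg exceeded TN by 2.70 ± 0.14 and GFPKO by 1.39 ± 0.14, and GFPKO exceeded TN by 1.31 ± 0.16. The third, 1451452_a_at, read 3.44 to 3.78 in TN, 4.54 to 4.78 in Treg and 3.65 to 4.27 in GFPKO, with overlap of GFPKO and TN. Its TN mean of 3.58 and its GFPKO mean of 3.94 were at or below background, so its Treg differences of 1.11 and 0.75 may be compressed. All 3 probe sets thus placed Treg above both other groups, whereas a rise of Rgs16 from TN to GFPKO was called in 1 of the 3 (1426037_a_at). When the probe sets of each gene were averaged, the GFPKO minus TN difference of Rgs16 was 0.62 and called.

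By the same measure of likeness, the genes nearest to Rgs16 (its brightest probe set) were AW112010 at 0.19, Slc45a4, a solute carrier, at 0.19 and Atpif1, the inhibitory factor of the mitochondrial ATP synthase, at 0.19. Their means had the order of Rgs16, highest in Treg, which follows from how they were picked.

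**Figure D2:**
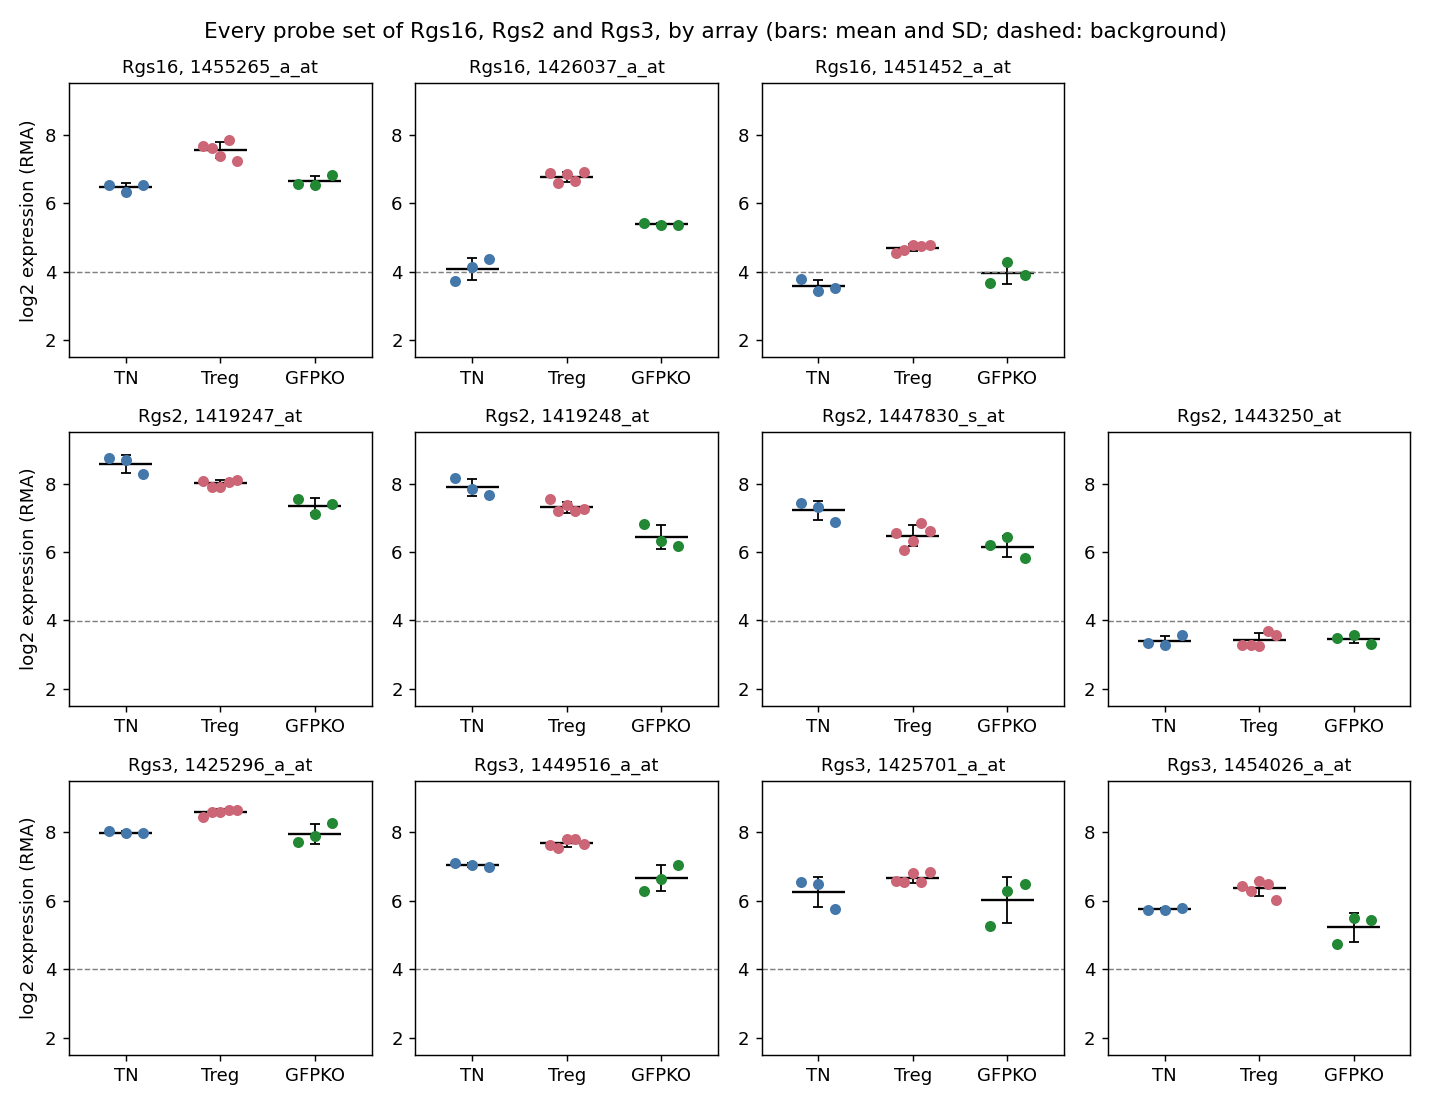
Each panel plots log2 expression (vertical axis) of 1 probe set of Rgs16 (top row), Rgs2 (middle row) or Rgs3 (bottom row) on the TN, Treg and GFPKO arrays, with points for arrays, bars for mean and SD and a dashed line at the background of 3.99. Rgs16 in GFPKO overlaps TN in 1455265_a_at and 1451452_a_at but not in 1426037_a_at, where it reads 5.36 to 5.43; Rgs2 descends from TN to GFPKO in 3 probe sets, and 1443250_at is below background.

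Rgs2 went the other way. Rgs2 is an R4 protein that acts mainly on G alpha q. Its brightest probe set, 1419247_at, read 8.75, 8.67 and 8.27 in TN, 8.07, 7.90, 7.91, 8.04 and 8.09 in Treg, and 7.55, 7.11 and 7.41 in GFPKO. The 3 groups did not overlap, with TN highest and GFPKO lowest. Treg was lower than TN by 0.56 ± 0.14 SE (-0.56), GFPKO was 2.31-fold lower than TN (-1.21 ± 0.16), and Treg was 1.56-fold higher than GFPKO (0.64 ± 0.14). The call of Treg against TN was lost without TN replicate 1 (log2 difference -0.47) and without TN replicate 2 (-0.51). That of Treg against GFPKO was lost without GFPKO replicate 2 (0.52).

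2 more Rgs2 probe sets were above background, and both had TN highest and GFPKO lowest. 1419248_at read 7.67 to 8.16 in TN, 7.18 to 7.55 in Treg and 6.17 to 6.83 in GFPKO, again with no overlap. 1447830_s_at read 6.89 to 7.43 in TN, 6.05 to 6.84 in Treg and 5.82 to 6.44 in GFPKO, where Treg and GFPKO overlapped. The fourth, 1443250_at, was between 3.24 and 3.69 on all arrays, at or below background. Genes nearest to Rgs2 in pattern were Supt7l, a subunit of a histone acetyltransferase complex, at 0.16, Rpp40, a subunit of ribonuclease P, at 0.16, and Insl6 at 0.17.

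Rgs2 is also expressed by myeloid and NK cells, and their markers are given beside it. The CD8 T cell markers are added because Cd8b1 had the same order of group means. Of 12 myeloid and dendritic markers 6 were called lower and 1 (Lyz2, lysozyme, 1.43 ± 0.42) higher in Treg than in TN, and 6 lower and 0 higher in GFPKO than in TN. The summed signal of the list was 1145 to 1456 in TN, 1044 to 1473 in Treg and 708 to 1060 in GFPKO. Cst3, the brightest gene of the list, weighed most in this sum. It averaged 9.40 in TN, 9.70 in Treg and 9.19 in GFPKO and was not called in any comparison. Cd14 and Itgam were at or below background in every group, and Tyrobp was at 7.87 in TN, 4.56 in Treg and 4.58 in GFPKO. The 4 NK markers summed to 480 to 646 in TN, 65.8 to 76.5 in Treg and 70.7 to 87.6 in GFPKO, with Ncr1 and Klrk1 at or below background in all groups. Of the 4, 2 (Klrd1 and Eomes) were called lower in Treg and in GFPKO than in TN. Klrd1, which made up most of the TN sum, averaged 8.83 in TN, 3.15 in Treg and 3.96 in GFPKO. Eomes averaged 6.12, 5.46 and 5.47. Of the 2 CD8 T cell markers, Cd8b1 averaged 7.60 in TN, 7.22 in Treg and 6.98 in GFPKO. It was called lower in GFPKO than in TN and in no other comparison. Cd8a, at 4.83, 5.17 and 4.90, was not called in any comparison. The part of other cells in the Rgs2 difference was not tested. In sorted populations read in bulk, fewer cells of a type and less RNA per cell cannot be told apart.

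The promoters of Rgs16 and Rgs2 are shown because these genes lie on the same chromosome, each has 1 listed start, and they moved in opposite directions between TN and Treg. Each window runs from 250 bases before the transcript start to 50 after it in RefSeq (build GRCm38.p6), is written 5′ to 3′ on the gene's strand, and covers chr1:153740103-153740402 on the plus strand for Rgs16 and chr1:144004100-144004399 on the minus strand for Rgs2. 5 of the 8 genes matched the RefSeq promoter table. Capitals mark matches, on either strand, to any of 4 motifs searched: the forkhead core TAAACA, the NFAT core GGAAA, the cAMP response core TGACG and the CCAAT box CCAAT.
Rgs16: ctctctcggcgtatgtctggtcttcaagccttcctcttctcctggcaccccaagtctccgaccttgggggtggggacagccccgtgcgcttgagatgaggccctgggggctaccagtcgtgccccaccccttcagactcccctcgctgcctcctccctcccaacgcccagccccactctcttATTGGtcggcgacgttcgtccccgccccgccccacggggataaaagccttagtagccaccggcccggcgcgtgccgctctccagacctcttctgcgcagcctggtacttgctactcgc
Rgs2: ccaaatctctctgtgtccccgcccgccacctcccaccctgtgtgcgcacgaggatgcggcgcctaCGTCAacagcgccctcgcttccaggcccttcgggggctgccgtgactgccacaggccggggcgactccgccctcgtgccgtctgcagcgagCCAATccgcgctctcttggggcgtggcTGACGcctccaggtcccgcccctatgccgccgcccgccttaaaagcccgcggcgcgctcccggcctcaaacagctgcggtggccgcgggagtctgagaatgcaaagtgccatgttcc

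Both windows held a CCAAT box, which 37.4% of the 32851 windows of this length in the table also held. The Rgs2 window had 2 matches to the cAMP response core, a motif found in 20.8% of windows, and the Rgs16 window had 0. Neither held the NFAT core (61.3% of windows) or the forkhead core (13.4%). A match describes these letters only.

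Rgs3, an R4 protein with long and short isoforms, was highest in Treg. Its brightest probe set, 1425296_a_at, read 8.03, 7.99 and 7.97 in TN, 8.46, 8.60, 8.58, 8.66 and 8.66 in Treg, and 7.71, 7.91 and 8.28 in GFPKO. Treg stood above both other groups with no overlap, and the TN values fell within the GFPKO range. Treg exceeded TN by 0.60 ± 0.13 and GFPKO by 0.63 ± 0.13, while GFPKO minus TN was -0.03 ± 0.15 (95% interval -0.34 to 0.28).

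The other 3 Rgs3 probe sets also had their highest mean in Treg and their lowest in GFPKO. The Treg minus GFPKO differences were 1.03 ± 0.15 for 1449516_a_at, 0.65 ± 0.25 for 1425701_a_at and 1.14 ± 0.17 for 1454026_a_at, and no GFPKO array reached a Treg array in any of the 4 probe sets. GFPKO replicate 1 had the lowest value of all arrays in each of them, for example 4.74 for 1454026_a_at against 5.50 and 5.43 in GFPKO replicates 2 and 3. With this actin gap as a covariate, chosen after seeing the data, the Treg minus GFPKO difference of Rgs3 was 0.46 and that of Rgs2 0.58, and neither was called. Rgs16 was then the only member of the 8 called between Treg and GFPKO. Over all genes, calls in that comparison fell from 1716 to 811 with the covariate.

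**Figure D3:**
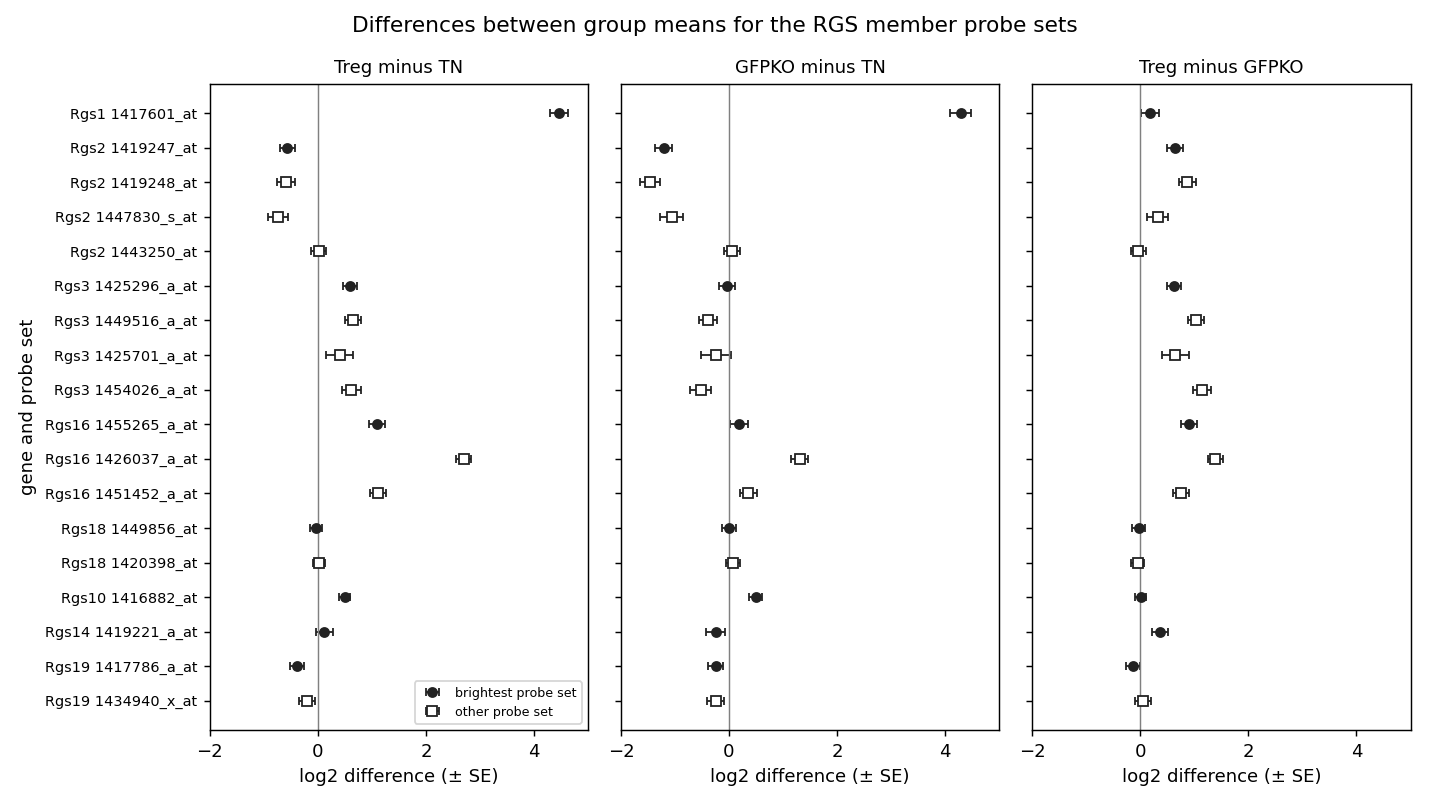
Log2 differences between group means (horizontal axis, with SE from a limma fit over all probe sets) are plotted for the 18 probe sets of the 8 genes (vertical axis) in the 3 comparisons; filled circles are the brightest probe set of a gene and open squares the others. Rgs1 lies beyond 4 in both comparisons with TN and near 0 between Treg and GFPKO, all Rgs3 and Rgs16 probe sets lie right of 0 in Treg minus GFPKO, and the Rgs18 probe sets lie on or beside the zero line.

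Rgs18, the R4 member known from platelets and myeloid cells, was not above background. Its 2 probe sets read between 1.96 and 2.45 on all 11 arrays. Of the 7 platelet and megakaryocyte markers Pf4, Ppbp and Gp6 were at or below background in each group. Itga2b (5.84 in TN, 5.93 in Treg and 5.73 in GFPKO), Gp9 (5.35, 5.36 and 5.36) and Treml1 (5.53, 5.61 and 5.44) were above it in each group. Gp1bb was above it in Treg only (4.01). None of the 7 was called in any comparison in limma (0 also at an unadjusted p under 0.05).

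In the RefSeq gene order (GRCm38.p6) Rgs2, Rgs13, Rgs1, Rgs21 and Rgs18 follow each other on chromosome 1 with no other protein-coding gene between them. Rgs16 lies elsewhere on that chromosome, next to Rgs8. The neighbours did not share a pattern: Rgs1 was higher and Rgs2 lower in Treg and GFPKO than in TN, and Rgs18 and Rgs13 were below background, Rgs13 reading 1.89 to 2.27. Rgs8, the neighbour of Rgs16, read 2.81 to 3.22 on all arrays.

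The R12 subfamily was represented by Rgs10 and Rgs14. Rgs10, a small protein of this subfamily abundant in leukocytes, read 11.27, 11.27 and 11.24 in TN, 11.73, 11.72, 11.82, 11.71 and 11.83 in Treg, and 11.72, 11.74 and 11.81 in GFPKO. The spread within groups was small (SD 0.02, 0.06 and 0.05), and all Treg and GFPKO arrays were above all TN arrays. The level was 1.41-fold higher in both groups than in TN, with differences of 0.50 ± 0.10 for Treg and 0.49 ± 0.11 for GFPKO. Treg minus GFPKO was 0.01 ± 0.10, with a 95% interval from -0.21 to 0.22. The call of GFPKO against TN held under 14 of 19 alternatives and was lost, among others, without any single TN array (0.50, 0.50 and 0.48 without replicates 1, 2 and 3), whereas that of Treg against TN held under all 19 alternatives.

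Rgs14, which besides its RGS domain has a second motif that holds G alpha i in the GDP-bound form, read 9.64, 9.82 and 9.67 in TN, 9.65, 9.78, 9.80, 9.93 and 9.99 in Treg, and 9.07, 9.52 and 9.78 in GFPKO. All 3 groups overlapped. Treg minus TN was 0.12 ± 0.15, GFPKO minus TN was -0.25 ± 0.17 and Treg minus GFPKO was 0.37 ± 0.15, none of them called. GFPKO replicate 1 was the lowest array. Without GFPKO replicate 3 the Treg minus GFPKO difference was 0.53 and was called.

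Rgs19, an RZ protein also known as GAIP, acts on G alpha i. Its brightest probe set read 10.13, 10.34 and 10.16 in TN, 9.89, 9.69, 9.78, 9.86 and 9.92 in Treg, and 9.67, 10.05 and 10.16 in GFPKO. Every Treg array was below every TN array, and GFPKO overlapped both. The difference of Treg minus TN was -0.38 ± 0.13 and was not called, except in a fit of these groups alone, without GFPKO replicate 1 and with array weights (-0.38, -0.38 and -0.45). The second probe set, 1434940_x_at, whose suffix marks probes that may cross-hybridise, read 8.65 to 9.37 over all arrays with overlap of all groups.

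11 RGS genes outside the 8 were measured, and 4 of them (Rgs9, Rgs11, Rgs12 and Rgs20) had a group mean above background by their brightest probe set. Rgs9, of the R7 subfamily, whose proteins are known to pair with the G beta 5 subunit, was higher in Treg (6.98 ± 0.22, SD, n = 5) than in TN (6.28 ± 0.24, n = 3), with a log2 difference of 0.70 ± 0.15 and a limma adjusted p = 0.0052. Its other probe sets were below background, and with all probe sets averaged the difference was 0.15 and not called. Gnb5, which encodes G beta 5, was also higher in Treg than in TN (5.16 ± 0.15 against 4.25 ± 0.06, SD, difference 0.91, limma adjusted p = 7.8e-05). Rgs11 was lower in Treg than in TN (-0.67 ± 0.14, 95% interval -0.96 to -0.38, limma adjusted p = 0.0038). Its Treg mean was at background, where RMA compresses differences. Rgs12 was higher in Treg than in GFPKO (0.59 ± 0.16, limma adjusted p = 0.034), a call that held under 10 of 19 alternatives and was lost with probe sets averaged (0.19) and without Treg replicates 2, 3 or 5 or GFPKO replicates 1 or 2. Between GFPKO and TN 0 of the 11 were called in limma (1 lower at an unadjusted p under 0.05).

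The partners of RGS proteins were read from 7 lists of the G protein pathway, 108 genes in all with the RGS genes above. In Treg against TN 22 were called higher and 15 lower, in GFPKO against TN 8 and 7, and in Treg against GFPKO 11 and 8. Over all genes 6.54% were called higher and 3.42% lower in Treg against TN, and 2.64% and 3.02% in GFPKO against TN. In Treg against GFPKO the shares were 6.88% and 2.55%. The counts of the single lists below stand beside these shares and are read no further. The median differences of the 108 genes were 0.02, 0.03 and 0.04, beside 0.03, -0.04 and 0.08 for all genes.

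Of 15 G alpha subunits, 4 rose and 0 fell in Treg against TN in limma (5 and 0 at an unadjusted p under 0.05). Gnaq, the G alpha q subunit on which Rgs2 acts, was higher by 1.54 ± 0.23 (95% interval 1.06 to 2.03, limma adjusted p = 0.00022). Its TN mean was at background, where RMA compresses differences. Gna15 was higher by 1.22 ± 0.20 (limma adjusted p = 0.00049). Gna12, named after its values were seen, was higher by 0.81 ± 0.14. Gna14 was called too (limma adjusted p = 0.00052), with all group means below background, so no size is given. Against GFPKO 4 were also higher in Treg and 0 lower (4 and 1 unadjusted), namely Gna12 (0.66 ± 0.14, limma adjusted p = 0.0074), Gna14 (limma adjusted p = 0.0044, below background), Gnaq (0.82 ± 0.23, limma adjusted p = 0.034) and, named after its values were seen, Gna15 (0.66 ± 0.20). The Gnaq call held under 12 of 19 alternatives and was lost without Treg replicates 1, 2 or 3 or GFPKO replicates 2 or 3. That of Gna12 held under 16 of 19. With the probe sets of each gene averaged, Gnaq was higher in Treg than in TN by 0.72 and still called, while the differences from GFPKO, 0.38 for Gnaq and 0.35 for Gna12, were not called. 0 were called between GFPKO and TN in limma (2 higher unadjusted). Gnai2, the inhibitory subunit that chemokine receptors use, read 11.58 ± 0.15 in TN, 11.53 ± 0.14 in Treg and 11.55 ± 0.12 in GFPKO, with differences of -0.04 ± 0.12 and -0.03 ± 0.14 from TN.

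Of 16 G beta and gamma subunits 3 rose in Treg against TN and 0 fell in limma (4 and 0 unadjusted): Gnb5, Gng2 (0.59 ± 0.13, limma adjusted p = 0.0090) and Gng12 (0.45 ± 0.12, limma adjusted p = 0.028, called under 12 of 19 alternatives and lost without TN replicates 2 or 3 or Treg replicates 3 or 5). Gnb5 was the one called in GFPKO against TN (0.51 ± 0.13, limma adjusted p = 0.036), a call that held under 6 of 19 alternatives and was lost without any TN array, without Treg replicates 2, 3 or 4 or without GFPKO replicate 2. With probe sets averaged, the differences of Treg from TN were 0.43 for Gnb5, still called, and 0.32 for Gng2 and 0.27 for Gng12, not called; the Gng2 call held under 17 of 19 alternatives. Among 11 other regulators of G alpha and arrestins, Gpsm2, whose product binds G alpha i in its GDP-bound form, was lower in Treg (-1.28 ± 0.14, limma adjusted p = 1.4e-05) and in GFPKO (-1.06 ± 0.16, limma adjusted p = 0.00057) than in TN.

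Proteins outside the family that carry an RGS-like domain comprised 14 measured genes, of which 1 rose and 2 fell in Treg against TN. Grk3 and Grk6 encode kinases that desensitise receptors and were lower by 0.56 (-0.56 ± 0.12, limma adjusted p = 0.0050) and 0.51 (-0.51 ± 0.14, limma adjusted p = 0.025). Arhgef12 was higher by 0.52 ± 0.15 (limma adjusted p = 0.044). The Grk6 call held under 13 of 19 alternatives and was lost without any TN array or Treg replicates 2 or 3. That of Arhgef12 held under 11 and was lost without TN replicates 1 or 2 or Treg replicates 1, 2, 3 or 5. Grk3 was also lower in GFPKO than in TN (-0.56 ± 0.13, limma adjusted p = 0.019), which held under 12 and was lost without TN replicates 2 or 3 or GFPKO replicates 1 or 2. With probe sets averaged that difference of Grk3 was -0.34 and not called.

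**Figure D4:**
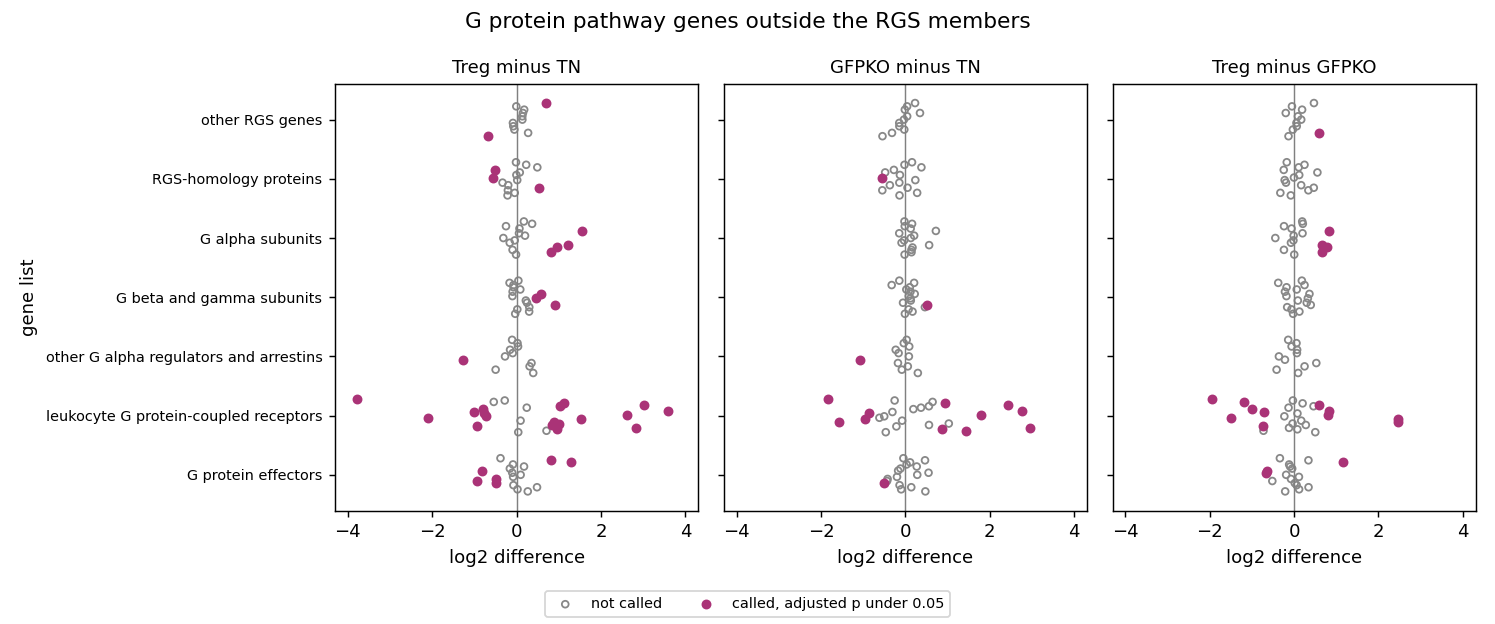
Each point is the log2 difference (horizontal axis) of 1 gene of a G protein pathway list (vertical axis) in the 3 comparisons, filled where the limma adjusted p over all genes was under 0.05. The receptors span -3.77 to 3.58 in Treg minus TN, and called G alpha subunits lie right of 0 in both comparisons with Treg.

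Receptors lie upstream of the G proteins. Of 24 G protein-coupled receptors of leukocytes 11 rose and 7 fell in Treg against TN, 7 rose and 4 fell in GFPKO against TN, and 5 were higher and 6 lower in Treg than in GFPKO. Vipr1, the receptor of vasoactive intestinal peptide, fell by 3.77 in Treg (-3.77 ± 0.18, limma adjusted p = 1.7e-09). The orphan receptor gene Gpr83 (3.58 ± 0.18, limma adjusted p = 2.7e-09) and Ptger2, a receptor of prostaglandin E2 (3.03 ± 0.14, limma adjusted p = 1.3e-09), were higher in Treg. In GFPKO against TN the largest called differences were in Ccr6 (2.95 ± 0.15, limma adjusted p = 6.1e-09), Gpr83 (2.76 ± 0.20, limma adjusted p = 4.3e-07) and Ptger2 (2.44 ± 0.16, limma adjusted p = 1.1e-07). Between Treg and GFPKO they were in the chemokine receptor genes Cxcr5 (2.47 ± 0.18, limma adjusted p = 5.5e-07) and Cxcr3 (2.45 ± 0.20, limma adjusted p = 1.6e-06), both higher in Treg, and Vipr1 (-1.94 ± 0.18, limma adjusted p = 7.2e-06). With probe sets averaged, Vipr1 in Treg differed by -2.15 from TN and by -0.94 from GFPKO, both still called.

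Of 17 effectors 2 rose and 4 fell in Treg against TN. Plcb3, a phospholipase C driven by G alpha q and by G beta and gamma, was higher in Treg than in TN (1.28 ± 0.15, limma adjusted p = 2.5e-05) and than in GFPKO (1.17 ± 0.15, limma adjusted p = 0.00015). Adcy6, an adenylyl cyclase, was lower in Treg than in TN (-0.95 ± 0.18, limma adjusted p = 0.0021), as was Pik3r5, a regulatory subunit of phosphoinositide 3-kinase gamma (-0.82 ± 0.18, limma adjusted p = 0.0071, lost without TN replicate 2). The others called, named after their values were seen, were Plcb4 (0.81 ± 0.17), another phospholipase C, and the cyclases Adcy7 (-0.49 ± 0.13) and Adcy5 (-0.48 ± 0.12). Treg was also below GFPKO in Pik3cg, the catalytic subunit (-0.65 ± 0.15, limma adjusted p = 0.014, called under 15 of 19 alternatives and lost without GFPKO replicates 1 or 2), and in Pik3r5 (-0.65 ± 0.18, limma adjusted p = 0.036, called under 12 of 19 and lost without Treg replicates 1, 2 or 3 or GFPKO replicates 2 or 3). In GFPKO against TN the called effector was Adcy5 (-0.50 ± 0.14, limma adjusted p = 0.047), which held under 5 of 19 alternatives (-0.20 and not called with probe sets averaged), and leaving out any of 9 single arrays ended that call: the arrays other than Treg replicate 3 and GFPKO replicate 3.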

How the data were processed

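Total RNA of 11 sorted CD4 T cell samples was labelled with biotin and hybridised to 1 Affymetrix array each, per the labels. The deposited log2 values were made by the authors with RMA, per the submitters' processing notes, which corrects background, normalises by quantiles and summarises probes; its version was not given in the sources used here. The log base was read from the values. RMA compresses differences near background.

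Of 45101 probe sets, 34945 had a single gene symbol and gave 18193 genes, each read from its brightest probe set, with no filter. 34741 matched RefSeq by gene ID. A model with 1 mean per group over all 11 arrays was fitted with limma 3.58.1 (R 4.3.3), with Benjamini-Hochberg adjustment over all genes, two-sided, called at an adjusted p under 0.05; the fit was checked on simulated data. Precision is limited by the number of arrays. The 8 genes, the pathway lists and the marker lists were chosen with earlier results of these data known. Named were the 8 genes, up to 3 called genes per pathway list and comparison by size of change, 3 genes nearest in pattern to each of the 8 whose group means spread over more than 1, and the markers beside them; Gnai2, a few called genes said so in the text, and the genes next to a member on the chromosome were added after their values were seen. Alternatives were the mean over probe sets, fits of the groups compared, a filter on dim genes, median centring, trended robust moderation, array weights, a replicate block, each array left out, and an actin covariate added later.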

Additional observations from a re-analysis of the deposited data

How the results depend on the processing

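The 8 RGS genes gave 5 calls in Treg minus TN, 3 in GFPKO minus TN and 3 in Treg minus GFPKO, and 4 to 6, 2 to 3 and 2 to 4 with each array left out. The pathway lists gave 37, 15 and 19, and 30 to 41, 11 to 23 and 14 to 25 with each array left out, the 23 being without GFPKO replicate 3. With array weights 5 RGS genes were called in Treg minus GFPKO, and 44 and 47 pathway genes in GFPKO minus TN and Treg minus GFPKO. Calls over all genes also rose with the weights, from 1029 to 5051 in GFPKO minus TN and from 1716 to 6756 in Treg minus GFPKO. With the actin covariate, chosen after seeing the data, 1 RGS gene was called in Treg minus GFPKO and 9 pathway genes in GFPKO minus TN. Calls over all genes also fell with it, from 1716 to 811 in Treg minus GFPKO and from 1029 to 570 in GFPKO minus TN. The cause was not tested. Replicate numbers are shared by the groups, and the labels do not say that they pair arrays. Deviations of same-numbered arrays correlated from -0.22 to 0.51 in 9 pairs, and 7 of 18 comparisons were best with the own number. For replicate 1 the values were 0.21 (TN and Treg), 0.16 (TN and GFPKO) and 0.51 (Treg and GFPKO). Those of replicates 2 and 3 lay between -0.22 and 0.07. Deviations from a group mean cancel within the group, so these values cannot decide whether the numbers pair arrays. With the replicate block 5, 2 and 3 RGS genes and 34, 15 and 15 pathway genes were called, and Rgs10 in GFPKO minus TN was not (0.49).

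Among the 8 RGS genes signs turned only for differences near 0 that were not called. Rgs18 in GFPKO minus TN was 0.035 with probe sets averaged, 0.074 with array weights and -0.051 to 0.091 with each array left out. In Treg minus TN it was 0.013 with array weights and 0.028 with the block, and in Treg minus GFPKO 0.031 with the block, 0.049 with the actin covariate and -0.12 to 0.018 with each array left out. Rgs10 in Treg minus GFPKO was -0.036 with the actin covariate and -0.012 to 0.033 with each array left out. Rgs3 in GFPKO minus TN was 0.18 with the actin covariate and -0.19 to 0.10 with each array left out. Of 453 member values under alternatives 418 kept direction and side of the threshold, and of 663 pathway values 574 did, with 0 reversed.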
